A study of Mus musculus with 19 samples.

Results

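Among array probe sets annotated with several gene symbols, 25 had a higher mean log2 expression after sleep deprivation by 0.2 or more, averaged over EphA4 knockout and wild-type forebrain. They were chosen from 772 such probe sets of distinct values, out of 8751 probe sets in all (8405 of distinct values). Probe sets with a symbol of a microRNA, ribosomal protein, olfactory, vomeronasal, trace amine receptor or zinc finger gene, or with the symbol Hspa8, had been set aside. A further row repeated the values of an Anxa11 probe set and was counted once. The averaged change chose these probe sets, so that change and its parts within each genotype are given as a description, with no test.

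The 19 arrays covered 4 groups of forebrain from mice of a mixed BL6/10 background, housed in a cycle of 12 h light and 12 h dark. They were 4 wild-type controls, 6 sleep-deprived wild-type samples, 4 EphA4 knockout controls and 5 sleep-deprived EphA4 knockout samples. Controls were left undisturbed, sleep deprivation lasted 6 h, and wild-type mice were littermates of the knockouts. The labels give neither age nor whether each sample came from its own animal, nor how the knockout was made, so a p-value here reflects only how far these samples spread, which may be technical. No probe set carried the symbol Epha4, so the genotype labels could not be checked on the deleted gene. Array medians ran from 5.90 to 6.07 on the log2 scale, and pairs of arrays correlated at 0.981 to 0.993 over the whole table. The number of arrays limits the precision.

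EphA4 is a receptor tyrosine kinase that binds ephrins on neighbouring cells and acts in axon guidance and at synapses. Sleep loss in rodents is known to change brain transcripts of the circadian clock, of neuronal activity, of protein folding and of lipid metabolism. A probe set can carry several symbols when its probes lie in near-identical copies of a gene, in a gene and its pseudogene, or in genes that overlap or adjoin, though not every set of symbols here is of such a kind. Its value is then 1 signal for all of them, and which gene supplied it cannot be told apart here. In bulk tissue, fewer cells of a type and less RNA per cell cannot be told apart either.

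Of the 25 probe sets, 10 shared a gene family with another. Replication-dependent histones supplied 8, the annexin gene Anxa11 2, and the other 15 each stood for their own set of symbols. Of these, 1 carried the clock gene Per2, 1 the serum amyloid genes Saa1 and Saa2, 1 the beta-globin genes, and 1 the Hsp90 co-chaperone gene Ptges3. In share, 25 of 772 eligible probe sets (3.24%) reached 0.2, against 311 of all 8405 (3.70%), so a change of this size was about as frequent with several symbols as in the whole table. In the other direction, 17 of the 772 (2.20%) had a change of -0.2 or less, against 189 of 8405 (2.25%).

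The averaged change ran from 0.20 to 0.43 on the log2 scale, with a median of 0.26, against 0.02 over all probe sets of distinct values. It was 0.2 or more in each genotype separately for 17 of the 25. In the knockout all 25 had a positive sign, and in wild type 24, the exception being the Rtl8a/Rtl8b probe set (-0.23). In wild type 5 of the 25 had every sleep-deprived array above every control, against 0.833% of all probe sets, and in the knockout 9 of 25, against 3.02%. Both held for 2, Per2 and the Anxa11 probe set 17297801, against 0.0714% of all. These shares use the contrast that chose the probe sets, so nothing is read from them.

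**Figure D1:**
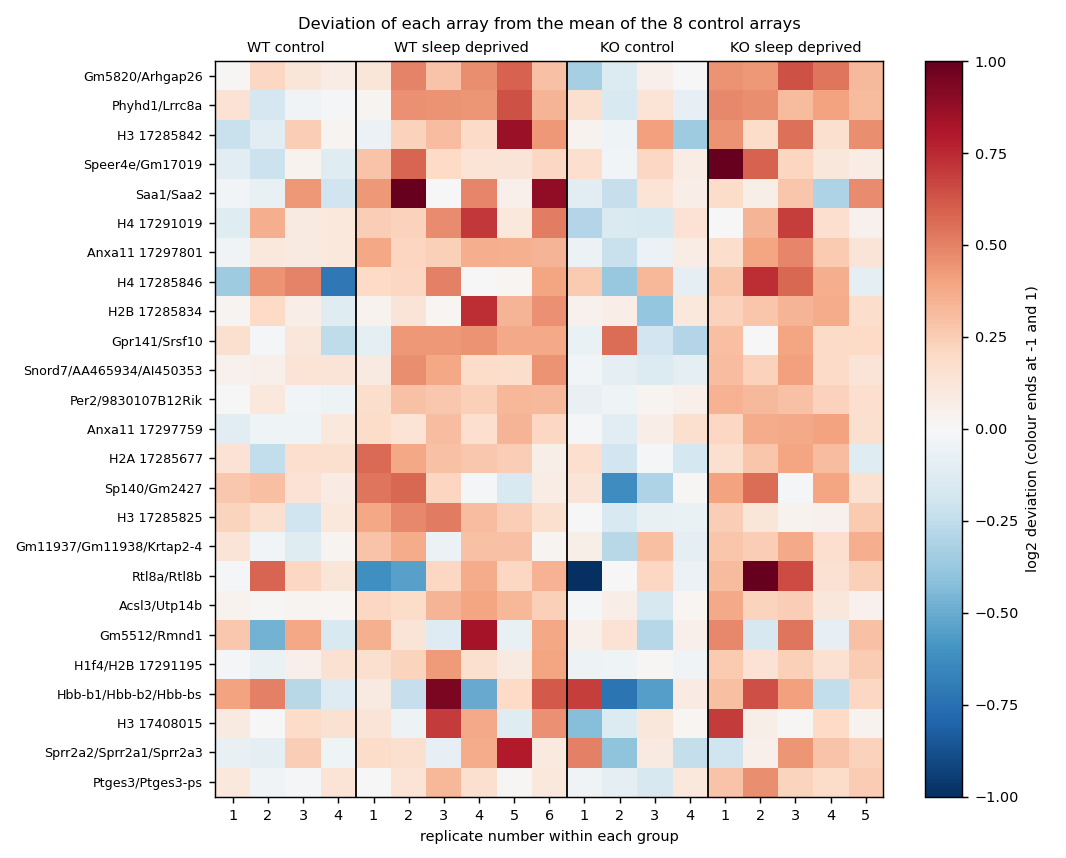
Log2 deviation of each of the 19 arrays (columns, by group and replicate number) from the mean of the 8 control arrays, for the 25 probe sets (rows, by averaged change). Colour ends at -1 and 1, which 3 of 475 deviations exceed. Per2 and both Anxa11 probe sets are on the red side in every sleep-deprived column, in varying depth, while the beta-globins change colour within every group.

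Single arrays differed in how many of the 25 they showed above the control mean. Every sleep-deprived wild-type array had 21 to 25 of the 25 above the mean of the 8 controls, and every sleep-deprived knockout array 22 to 24. Among controls, KO_control replicate 2 stood lowest, with 4 of 25 above that mean and a median deviation of -0.13. The other controls had 12 to 18. The median deviation over all probe sets ran from -0.02 to 0.06 over the 19 arrays. The counts above the control mean use the contrast that chose the 25, so nothing is read from them.

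Replication-dependent histone genes encode the core histones H2A, H2B, H3 and H4 and the linker histone H1 in clustered, intron-poor copies whose coding sequences are nearly alike. They are known for high expression in S phase and for transcripts that end in a stem-loop in place of a poly(A) tail. The 8 histone probe sets comprised 3 for H3, 2 for H4, 1 for H2A, 1 for H2B and 1 for H1f4 with H2B, and carried 35 of the 72 symbols of the 25 probe sets. Which copy supplied a signal cannot be told apart. By mean level these probe sets stood at percentiles 8.7, 18.6, 19.6, 34.6, 36.8, 37.4, 64.7 and 77.8 of all probe sets.

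The H3 probe set 17285842 carried 8 symbols (H3c13, H3c6, H3c2, H3c4, H3c3, H3c7, H3c15 and H3c14). It read 4.77, 4.89, 5.24 and 5.02 in wild-type controls, and 4.93 to 5.85 with a median of 5.26 after sleep deprivation. In the knockout it read 5.03, 4.95, 5.40 and 4.64 in controls and 5.44, 5.17, 5.54, 5.15 and 5.45 after sleep deprivation. The groups overlapped in both genotypes, and the change was 0.34 in wild type and 0.35 in the knockout (averaged 0.34 ± 0.11, SE from limma's fit). This SE, like those of the other averaged changes below, takes no account of the choice by that change.

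Both H4 probe sets carried the same 13 symbols, among them H4c1, H4c9 and H4c14. Probe set 17291019 read 5.00, 5.48, 5.21 and 5.23 in wild-type controls and 5.22 to 5.82 (median 5.47) in sleep-deprived wild type. In the knockout the controls read 4.83, 4.97, 4.96 and 5.26 and the sleep-deprived arrays 5.12, 5.46, 5.81, 5.29 and 5.16. The groups overlapped in each genotype, with KO_sleep_deprived replicate 3 the highest of its group, and the averaged change was 0.31 ± 0.10 (SE).

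Probe set 17285846 was more scattered. Its wild-type controls read 3.57, 4.37, 4.42 and 3.21 and the sleep-deprived wild-type arrays 3.92 to 4.43 (median 4.13). Its knockout controls read 4.19, 3.54, 4.26 and 3.83 and the sleep-deprived knockout arrays 4.20, 4.66, 4.50, 4.29 and 3.83. Controls split into a high and a low pair in wild type, and the averaged change of 0.30 ± 0.15 (SE) was 0.18 without WT_control replicate 4.

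The H2B probe set 17285834 (H2bc8, H2bc6 and H2bc4) read 6.48, 6.66, 6.52 and 6.34 in wild-type controls and 6.47 to 7.20 (median 6.69) after sleep deprivation. Knockout controls read 6.50, 6.52, 6.07 and 6.57 and the sleep-deprived knockout arrays 6.69, 6.73, 6.80, 6.83 and 6.63. All 5 sleep-deprived knockout arrays lay above all 4 knockout controls, whereas the wild-type groups overlapped, and the averaged change was 0.28 ± 0.09 (SE). Probe set 17291195, which adds the linker histone gene H1f4 to the same H2B symbols, had changes of 0.21 (wild type) and 0.24 (knockout). The H2A probe set 17285677, with 10 symbols, had changes of 0.25 and 0.26. The other H3 probe sets, 17285825 and 17408015, had changes of 0.28 and 0.21 and of 0.14 and 0.31., in the same order

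Because histones were the largest family among the 25, the stretch of 130 bases before the annotated start is shown for 1 gene of each histone class. Each is the gene with a single start in the table that comes first by symbol. The sequences are from RefSeq (GRCm38.p6), read 5′ to 3′ on the gene's strand. Capitals mark TATAAA (forward strand), CCAAT (either strand), the octamer ATTTGCAT (either strand) and the E-box CACGTG (either strand), and no 2 marked matches overlap. H1f4 lies on the minus strand at chr13:23622559-23622688, H2ac11 on the minus strand at chr13:22042950-22043079 and H2bc8 on the plus strand at chr13:23571270-23571399. H3c13 lies on the plus strand at chr3:96268524-96268653 and H4c1 on the minus strand at chr13:23761250-23761379.
H1f4: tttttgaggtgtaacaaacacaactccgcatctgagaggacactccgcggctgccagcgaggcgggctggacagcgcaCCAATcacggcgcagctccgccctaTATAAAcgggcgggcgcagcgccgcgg
H2ac11: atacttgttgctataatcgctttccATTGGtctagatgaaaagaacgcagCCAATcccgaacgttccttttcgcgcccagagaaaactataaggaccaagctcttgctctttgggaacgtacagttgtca
H2bc8: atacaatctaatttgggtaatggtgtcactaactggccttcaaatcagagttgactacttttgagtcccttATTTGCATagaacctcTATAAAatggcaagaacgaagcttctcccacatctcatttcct
H3c13: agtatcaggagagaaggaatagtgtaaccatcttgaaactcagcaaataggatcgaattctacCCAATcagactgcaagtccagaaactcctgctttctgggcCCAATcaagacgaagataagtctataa
H4c1: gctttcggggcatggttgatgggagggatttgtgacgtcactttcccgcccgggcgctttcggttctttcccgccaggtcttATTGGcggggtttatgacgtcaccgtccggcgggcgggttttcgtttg

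The first bases of these matches stood 27 bases (TATAAA) and 52 bases (CCAAT) before the start of H1f4, and 43 bases (TATAAA) and 59 bases (octamer) before that of H2bc8. Of the 35 histone symbols, 32 had a promoter entry, with 33 windows of 250 bases before a start. TATAAA was in 13 of the 33 windows (39.4%), against 7.59% of all 32851 windows. CCAAT was in 22 (66.7%), against 33.8%, and the octamer, known as an Oct1 site of H2B promoters, in 6 (18.2%), against 1.6%. By class, CCAAT was in all 10 H2A windows and in 3 of 12 H4 windows, and the octamer in 4 of 10 H2A and 2 of 3 H2B windows. These matches describe the letters in the windows and were not related to the array values.

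Not all histone probe sets reached the threshold. Over the 48 distinct histone probe sets in the table, with 1 or several symbols, 34 had a positive and 14 a negative averaged change. Their median was 0.06, against 0.02 over all probe sets, of which 4882 of 8405 were positive. Of the 48, 11 reached 0.2, against 311 of all 8405 (3.70%), and none was at -0.2 or less, against 189 (2.25%). The 11 were the 8 described here, chosen by this change, and 3 with the single H4 symbols H4c9, H4c8 and H4c14. No test was made of these shares. The 4 probe sets for H3.3, the replication-independent variant encoded by H3f3a and H3f3b, ran from -0.07 to 0.06. The brightest histone probe sets were H4c12 (mean log2 11.3), 17290997 (H2B, 11.0), 17400545 (H2A, 10.5) and 17285851 (H2B, 10.3). Their averaged changes were 0.04, 0.02, -0.12 and 0.14.

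Probe sets with the same symbols did not share one value. For the set of 8 H3 symbols, the other 5 probe sets had averaged changes of 0.19, 0.08, 0.04, 0.00 and -0.07. For the 13 H4 symbols, the other 2 had 0.18 and 0.03. For the 10 H2A symbols, the other probe sets had 0.15, 0.13, 0.08, 0.03, 0.01 and -0.15. Within groups, after the group means were taken off, the pairwise correlations over 19 arrays among the 8 histone probe sets had a median of -0.04 (from -0.41 to 0.63). That median was 0.02 over the 772 eligible probe sets. The arrays are shared by all these values, and the correlations are a description.

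**Figure D2:**
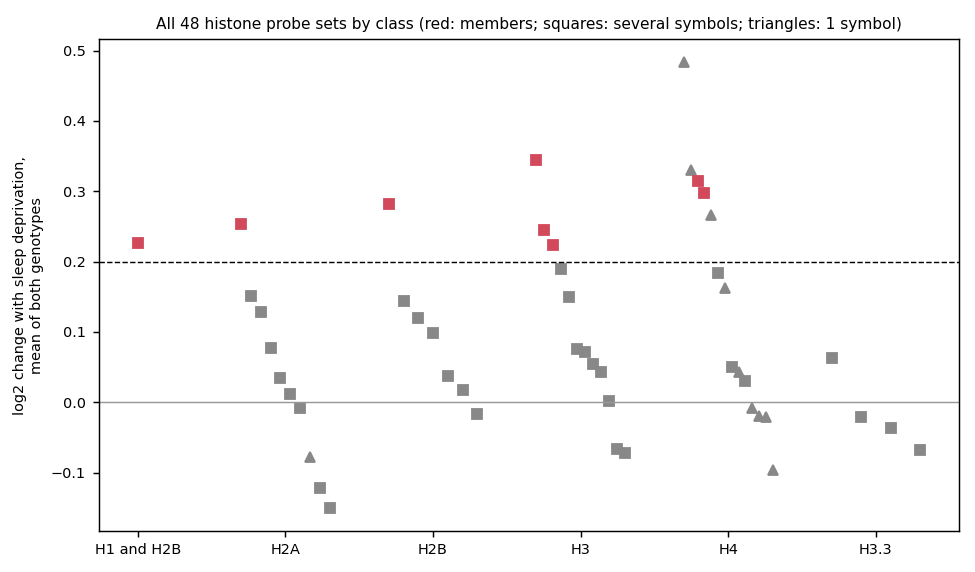
Averaged log2 change with sleep deprivation (vertical axis) of the 48 histone probe sets by histone class (horizontal axis), 1 point per probe set, with no error bars. The dashed line is the threshold of 0.2. The 8 red squares above it are the histone members, and 3 grey triangles above it carry a single H4 symbol.

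Per2 encodes a repressor of the circadian clock that shuts off its own transcription. Its probe set, which also carries 9830107B12Rik, read 8.23, 8.32, 8.19 and 8.17 in wild-type controls and 8.39 to 8.55 (median 8.50) after sleep deprivation. In the knockout it read 8.15, 8.17, 8.25 and 8.27 in controls and 8.57, 8.54, 8.51, 8.45 and 8.39 after sleep deprivation. Neither genotype overlapped, and the changes were 0.26 and 0.28 (averaged 0.27 ± 0.04, SE), or 1.21-fold. Its pooled SD within groups, 0.07, was the lowest of the 25. The median of this SD was 0.21 over the 25, against 0.13 over the 772 eligible probe sets. The RefSeq table places 9830107B12Rik on another chromosome than Per2, and the probe set with that symbol alone had an averaged change of -0.01.

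The largest averaged change belonged to the probe set of Gm5820 and Arhgap26, overlapping genes of which Arhgap26 encodes a GTPase-activating protein. It read 6.56, 6.75, 6.66 and 6.62 in wild-type controls and 6.67 to 7.14 (median 6.92) after sleep deprivation. Knockout controls read 6.21, 6.41, 6.60 and 6.54, below all 5 sleep-deprived knockout arrays (6.99, 6.98, 7.18, 7.08 and 6.87). One sleep-deprived wild-type array, replicate 1, lay within the control range, and the averaged change was 0.43 ± 0.07 (SE), or 1.34-fold. The probe set with the symbol Arhgap26 alone had a change of 0.18 in each genotype.

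Phyhd1, a dioxygenase related to phytanoyl-CoA hydroxylase, and Lrrc8a, the obligatory subunit of the volume-regulated anion channel, are next to each other in the genome and shared a probe set. It read 7.73, 7.41, 7.54 and 7.57 in wild-type controls, 7.61 to 8.21 (median 8.02) in sleep-deprived wild type and 7.74, 7.43, 7.72 and 7.50 in knockout controls. The sleep-deprived knockout arrays read 8.06, 8.04, 7.89, 7.98 and 7.90, all above their controls. In wild type WT_sleep_deprived replicate 1 overlapped the controls, and the averaged change was 0.39 ± 0.07 (SE). A probe set of Phyhd1 with Nup188 had a change of -0.03.

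Anxa11 encodes an annexin, a protein that binds phospholipid in the presence of calcium, and its probe sets also carried the transcribed pseudogenes Gm2274 and Gm2260. Probe set 17297801 read 9.31, 9.45, 9.44 and 9.46 in wild-type controls and 9.56 to 9.74 (median 9.69) after sleep deprivation. Knockout controls read 9.29, 9.12, 9.29 and 9.42, and the sleep-deprived knockout arrays 9.52, 9.74, 9.84, 9.61 and 9.48. The groups did not overlap in either genotype, with an averaged change of 0.30 ± 0.06 (SE). Probe set 17297759 had changes of 0.25 (wild type) and 0.28 (knockout), where the control of replicate 4 overlapped the sleep-deprived arrays. The residuals of these 2 probe sets had a correlation of 0.66 over the 19 arrays, the highest among the 25, and they share gene and arrays.

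Acsl3, which activates long-chain fatty acids to acyl-CoA, shared a probe set with Utp14b, a ribosome-biogenesis retrogene inside its locus. Wild-type controls read 9.14, 9.11, 9.13 and 9.12, and all 6 sleep-deprived wild-type arrays lay above them (9.28 to 9.50). In the knockout 4 of 5 sleep-deprived arrays lay above all controls, and the changes were 0.26 and 0.22.

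Saa1 and Saa2 encode serum amyloid A, an acute-phase protein. Their probe set read 4.12, 4.07, 4.57 and 3.94 in wild-type controls and 4.14 to 5.37 (median 4.60) after sleep deprivation. In the knockout it read 4.03, 3.91, 4.28 and 4.21 in controls and 4.33, 4.20, 4.42, 3.83 and 4.61 after sleep deprivation. The groups overlapped in both genotypes, and WT_sleep_deprived replicates 2 and 6 were the highest arrays. The change was 0.48 in wild type and 0.17 in the knockout (averaged 0.33 ± 0.15, SE).

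The beta-globin probe set 17494221 (Hbb-b1, Hbb-b2 and Hbb-bs), a marker of blood, had the widest spread of the 25, with a pooled SD of 0.49. It had changes of 0.06 (wild type) and 0.39 (knockout), with overlap in both. Its averaged change of 0.22 was 0.12 without KO_control replicate 2 and 0.36 without KO_control replicate 1. The 4 other globin probe sets had averaged changes of 0.14 and 0.02 (Hba-a1 and Hba-a2) and 0.11 and -0.08 (beta-globins), and 1 of the former had 0.22 in wild type and -0.18 in the knockout. Whether blood in the tissue took part in these changes was not tested.

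Among genes of RNA and protein handling, Gpr141, an orphan receptor gene, shared a probe set with Srsf10, a splicing regulator on another chromosome. It read 5.49, 5.31, 5.44 and 5.07 in wild-type controls and 5.24 to 5.77 (median 5.74) after sleep deprivation. Knockout controls read 5.26, 5.89, 5.14 and 5.03, against 5.63, 5.32, 5.72, 5.52 and 5.53 after sleep deprivation. In wild type 5 of 6 sleep-deprived arrays lay above all controls, and in the knockout none did, since KO_control replicate 2 was the highest array of that genotype. The averaged change was 0.27 ± 0.10 (SE).

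The small nucleolar RNA gene Snord7 with the overlapping long noncoding RNAs AA465934 and AI450353 had changes of 0.20 (wild type) and 0.34 (knockout), where no arrays overlapped. Ptges3, which encodes p23, a co-chaperone of Hsp90, shared a probe set with its pseudogene Ptges3-ps. That probe set had changes of 0.08 and 0.33. In the knockout its controls read 10.30, 10.23, 10.18 and 10.43, below all 5 sleep-deprived arrays (10.52 to 10.79). The other Ptges3 probe sets had averaged changes of 0.12 (with the pseudogene) and 0.13 (Ptges3 alone). Rmnd1, which acts in mitochondrial translation, with the pseudogene Gm5512, had changes of 0.24 and 0.22 and overlapped in both genotypes; without WT_control replicate 2 its averaged change of 0.23 was 0.15.

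Some of the symbols belong to families known for other tissues. Speer4e and Gm17019, of a testis-expressed multicopy family, read 4.87, 4.77, 5.02 and 4.86 in wild-type controls and 5.12 to 5.57 (median 5.19) after sleep deprivation, without overlap. In the knockout the controls read 5.15, 4.96, 5.20 and 5.06 and the sleep-deprived arrays 5.98, 5.58, 5.20, 5.10 and 5.06. There 3 of 5 sleep-deprived arrays lay above all controls, replicate 3 narrowly, and the averaged change of 0.33 was 0.25 without replicate 1. The other Speer4e probe sets had changes of 0.01 and -0.08.

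Keratin-associated Krtap2-4 with Gm11937 and Gm11938, and the cornified-envelope genes Sprr2a1, Sprr2a2 and Sprr2a3, had averaged changes of 0.24 and 0.21. Sp140, a nuclear-body protein gene of immune cells, with Gm2427, had changes of 0.01 (wild type) and 0.50 (knockout). Rtl8a and Rtl8b, X-linked genes derived from a retrotransposon, had changes of -0.23 and 0.72. Their wild-type sleep-deprived arrays ran from 4.91 to 5.89 and KO_control replicate 1 read 4.49, the lowest array. Without that array the averaged change of 0.24 was 0.11, and the other probe set of both genes had changes of -0.06 and 0.25.

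**Figure D3:**
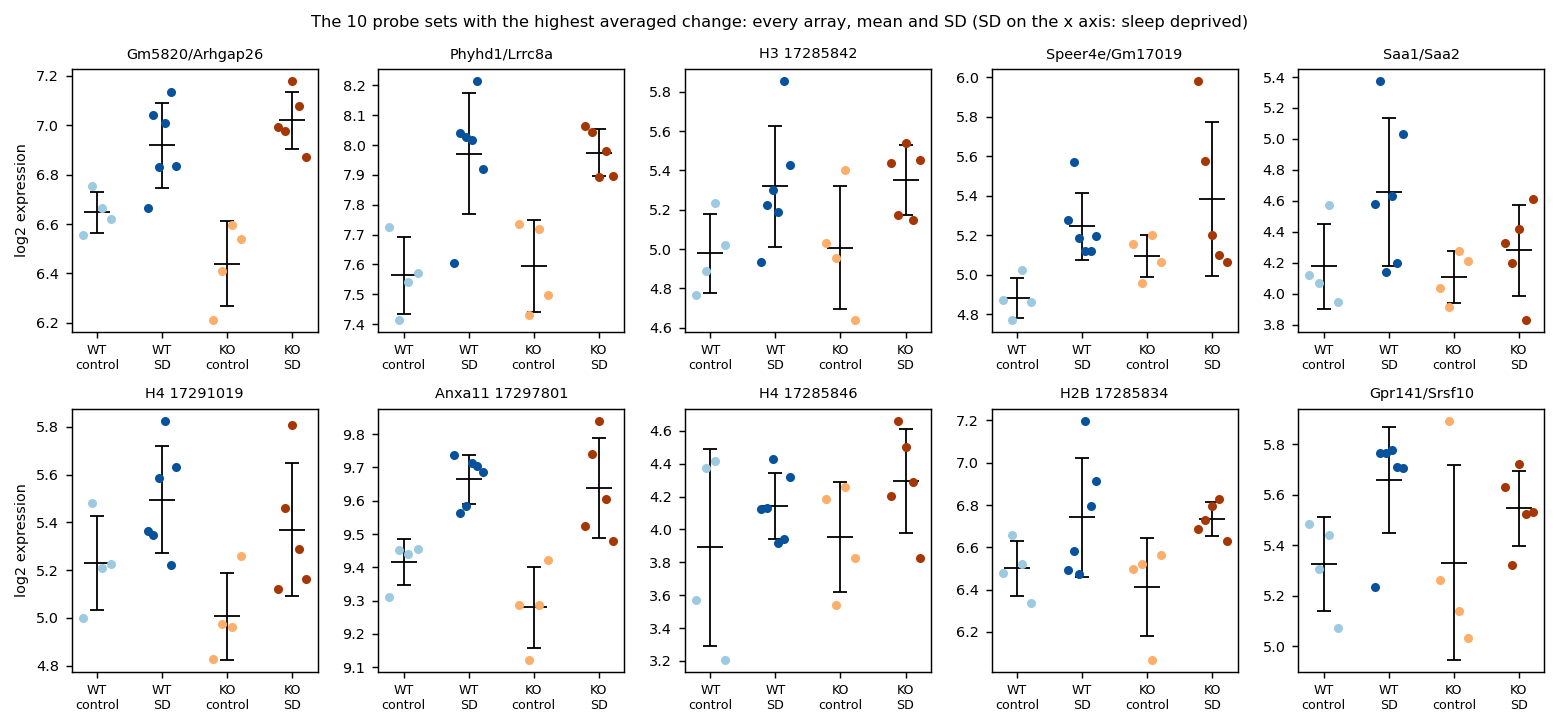
Log2 expression on every array (vertical axis, its own range in each panel) in the 4 groups (horizontal axis) for the 10 probe sets with the highest averaged change. Points are arrays, the long bar is the group mean and the whiskers are 1 SD. Anxa11 17297801 shows no overlap in either genotype, and H4 17285846 overlaps in both.

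The genotype comparisons and the interaction did not enter the choice of the probe sets and were tested with limma over all 8751 probe sets. The interaction asked whether the change with sleep deprivation differed between genotypes. None of the 25 passed at an adjusted p of 0.05 (smallest adjusted p = 0.32), against 0.0686% of all probe sets, and 4 had an unadjusted p under 0.05, against 11.5% of all. The 4 were Rtl8a/Rtl8b, Gm5820/Arhgap26, Ptges3/Ptges3-ps and Sp140/Gm2427, each with the higher change in the knockout.

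Rtl8a/Rtl8b had a difference of 0.94 ± 0.36 (SE; limma adjusted p = 0.32) with a 95% interval from 0.20 to 1.69. For Gm5820/Arhgap26 it was 0.31 ± 0.14 (SE; limma adjusted p = 0.40). For Ptges3/Ptges3-ps the difference was 0.25 ± 0.11 and for Sp140/Gm2427 0.49 ± 0.22, with limma adjusted p = 0.40 and 0.41. Snord7/AA465934/AI450353 came next, with 0.14 ± 0.11 and a limma adjusted p = 0.66. The sign was positive for 17 of the 25 and negative for 8, all read on the same arrays. The median difference was 0.03 over the 25, against -0.003 over all probe sets.

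How closely the genotypes could be compared depended on the probe set. For Per2 the difference was 0.02 with a 95% interval from -0.16 to 0.20, the narrowest of the 25. For Anxa11 17297759 the interval ran from -0.19 to 0.25, for Acsl3/Utp14b from -0.25 to 0.18 and for H1f4 with H2B from -0.19 to 0.24. For Saa1/Saa2 it ran from -0.92 to 0.30 and for the beta-globins from -0.51 to 1.17. The 8 histone probe sets had differences from -0.06 to 0.17, and their intervals all included 0.

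**Figure D4:**
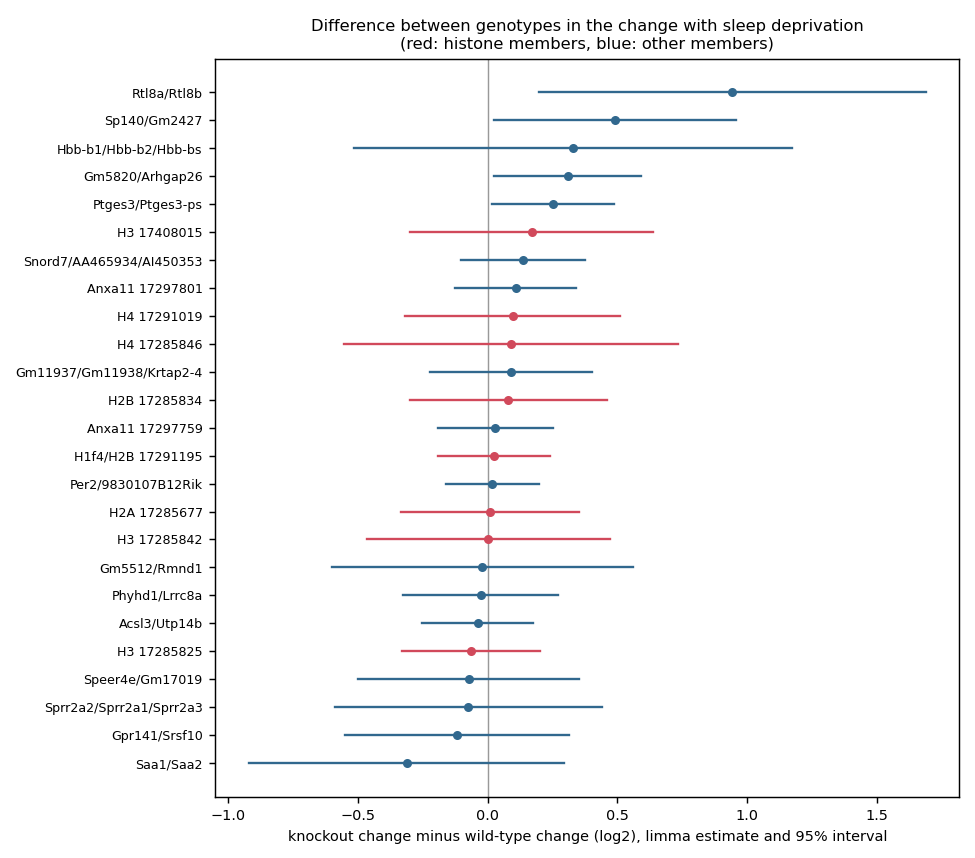
Change in the knockout minus change in wild type (horizontal axis, log2) for the 25 probe sets (vertical axis), as limma's estimate with its 95% interval, not adjusted for the number of probe sets. The intervals of Rtl8a/Rtl8b, Sp140/Gm2427, Gm5820/Arhgap26 and Ptges3/Ptges3-ps lie above 0, and the other 21 include it.

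Knockout minus wild type was also tested in each condition. Averaged over conditions none of the 25 passed (smallest adjusted p = 0.43, limma), against 0.0114% of all, and 1 had an unadjusted p under 0.05, against 8.73%. That was the H3 probe set 17285825, lower in the knockout by a difference of -0.18 ± 0.06 (SE). It was -0.21 ± 0.08 after sleep deprivation, where it read 3.48 ± 0.14 (SD, n = 6) in wild type and 3.27 ± 0.11 (SD, n = 5) in the knockout, with a limma adjusted p = 0.22. Next came Snord7/AA465934/AI450353 (-0.11 ± 0.06), the H4 probe set 17291019 (-0.18 ± 0.10), Speer4e/Gm17019 (0.18 ± 0.10) and Saa1/Saa2 (-0.22 ± 0.15), with limma adjusted p from 0.62 to 0.70.

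After sleep deprivation none of the 25 passed (smallest adjusted p = 0.22, limma), against 1.68% of all probe sets, and 3 had an unadjusted p under 0.05, against 15.4%. Besides the H3 probe set these were Ptges3/Ptges3-ps (0.16 ± 0.07) and Rtl8a/Rtl8b (0.49 ± 0.23), both higher in the knockout, with limma adjusted p = 0.30 and 0.31. Saa1/Saa2 (-0.38 ± 0.19) and Acsl3/Utp14b (-0.08 ± 0.07) followed, with limma adjusted p = 0.35 and 0.61. In controls none passed (smallest adjusted p = 0.87, limma), as for all probe sets (0%). There 1 had an unadjusted p under 0.05, Sp140/Gm2427 (-0.40 ± 0.17), against 5.44% of all. In controls 19 of the 25 had a negative sign, with a median difference of -0.07, against 0.01 over all probe sets. The 25 were read on the same 8 control arrays, so their signs are not separate results. Among these arrays the median deviation of the 25 was lowest in KO_control replicate 2 (-0.13) and highest in WT_control replicate 3 (0.09). Whether single arrays account for the signs was not tested.

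**Figure D5:**
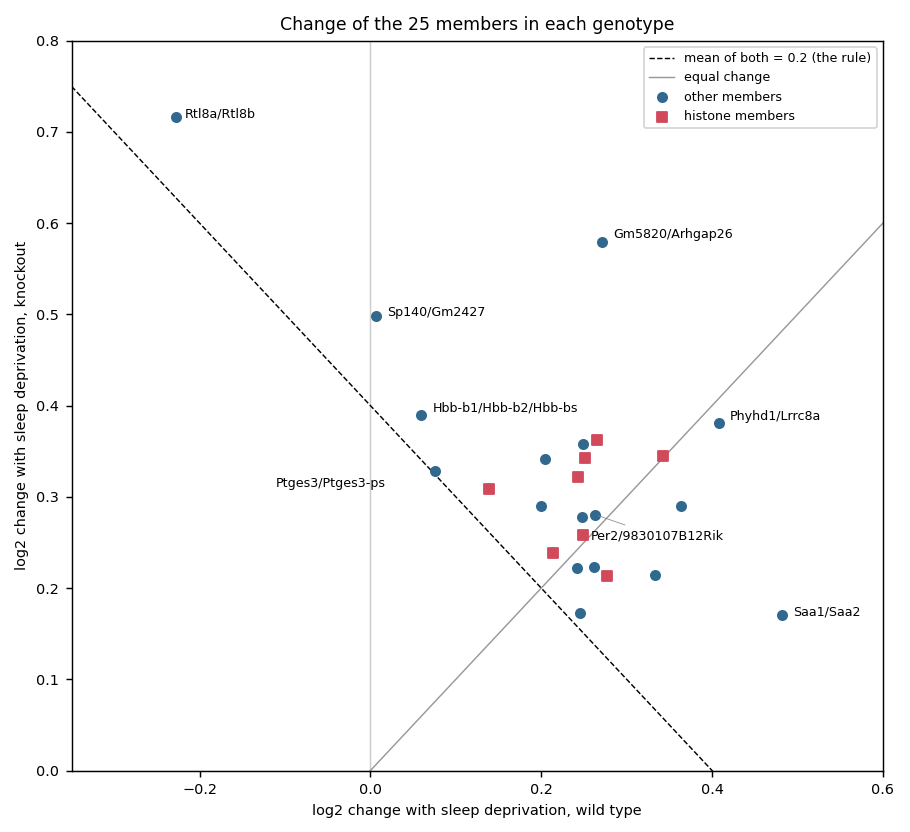
Log2 change with sleep deprivation in wild type (horizontal axis) and in the knockout (vertical axis) for the 25 probe sets. The dashed line is the rule, above which every point must lie, and the grey line marks equal change. The 8 histone members (red squares) lie between 0.14 and 0.34 in wild type and between 0.21 and 0.36 in the knockout, while Rtl8a/Rtl8b lies at -0.23 and 0.72.

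The symbols of a probe set were set against the RefSeq gene table, in which all 72 were found by identifier. For 16 of the 25 all symbols lay on 1 chromosome (64%), against 86.6% of the 740 eligible probe sets with 2 or more genes in the table. Of the 9 that spanned chromosomes, 5 were histone probe sets for H3 and H4, and the rest Per2/9830107B12Rik, Gpr141/Srsf10, Gm5512/Rmnd1 and Ptges3/Ptges3-ps. Genes that overlap each other were present in 3 of the 25 (12%), against 13%, and a pseudogene in 4 (16%), against 21.4%. No test was made of these shares.

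The other 17 probe sets had 26 genes with a promoter entry, in 28 windows, and Per2 had none. The E-box CACGTG, the letters bound by the clock factors CLOCK and BMAL1, was in 5 of these windows (17.9%), against 6.02% of all. The 5 were those of Utp14b, Gm2427, Lrrc8a, Rmnd1 and AA465934, and none of the 33 histone windows held it. Each of these genes shares its probe set with another symbol, and whether the matches bear on the array values was not tested. AA465934, at chr11:83291569-83291698 on the plus strand, is shown for its match 55 bases before the start, with CCAAT on the reverse strand also in capitals.
AA465934: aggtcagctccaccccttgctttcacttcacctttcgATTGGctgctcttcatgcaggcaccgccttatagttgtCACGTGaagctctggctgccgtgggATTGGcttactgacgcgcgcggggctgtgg

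Other probe sets carried the same symbols. Beside the 25, 42 probe sets of distinct values carried at least 1 of the 72 symbols. Their averaged changes had a median of 0.04 and ran from -0.15 to 0.48, with 29 of 42 positive. Over all probe sets of distinct values, 4882 of 8405 were positive, with a median of 0.02. The 15 of them with no histone symbol ran from -0.08 to 0.18, so none reached 0.2. The 25 had been taken from the upper end of the same measure.

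Lists of genes gave little more. Of 31 lists, 28 had at least 1 probe set and 8 held a member: the 48 histone probe sets held 8, the 661 with a predicted gene 7, and 6 other lists 1 each. The sleep deprivation list matched 3 probe sets, Per2, Fkbp5 (0.42) and Rbm3, a cold-inducible RNA-binding protein gene, with its pseudogene (-0.39). The chaperone list matched 7, with a median of 0.12. The highest was Pdia4, a protein disulfide isomerase of the endoplasmic reticulum, with Mir704 (0.39). The rest were Hspa8 (0.20, 0.20 and 0.12), Dnaja1 with Mir207 (0.07) and Ppia with E030024N20Rik (-0.03 and -0.05). Ptges3 stood on neither list.

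Little could be said of cell types. Of 57 marker genes of neurons, forebrain regions, glia, vessels, choroid plexus, blood and hindbrain, 8 had a probe set. The neuronal gene Map2 had group means from 11.75 to 11.80. All 9 forebrain markers and all astrocyte, oligodendrocyte and microglia markers were without one, so the labelled tissue could not be checked on them. The hindbrain genes Hoxb3 and Hoxb2 shared a probe set with group means from 6.36 to 6.44, against array medians of 5.90 to 6.07. What this level means for the labelled tissue was not tested.

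Just above the threshold stood Ptges3/Ptges3-ps (0.20), Sprr2a2/Sprr2a1/Sprr2a3 (0.21) and the H3 probe set 17408015 (0.22). Just below it were Eef1a1/Gm7614 (0.1997), Rag1/Iftap (0.199) and Gm12669/Glrx3 (0.198).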

How the data were processed

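Forebrain RNA from a lipid tissue kit was hybridised to Affymetrix arrays, per the labels' protocols. Each deposited value is a log2 expression of 1 probe set on 1 array, between 2.18 and 14.2. RMA, oligo and limma appear in the submitters' processing notes without version, role or order. The genome build of the array annotation is not given in the sources used here. The series' text warns of incomplete tables. Symbols came from the platform annotation: 1308 rows had 1 symbol, 1178 several and 6265 were unnamed here. Of the 8751 rows, 346 repeated an earlier one.

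Group means gave the averaged change. Tests used limma 3.58.1 in R 4.3.3 with 4 group means on all 19 arrays, no covariates and Benjamini-Hochberg adjustment over 8751 rows at 0.05, and were tested on simulated data. The probe sets and lists were chosen with earlier results of these data known. Values per array are given for the 10 highest averaged changes and, chosen after their values were seen, for a few others. Statistics are given for the 5 smallest p in the interaction and in knockout minus wild type averaged over conditions and after sleep deprivation, and in controls for the smallest p only. The list pattern for histones also matched H19, a noncoding RNA, which was left out. The main fit did not pair arrays by replicate number (closing section). Promoter sequences were RefSeq's. The alternatives were other normalizations, centring, weights, filters, a block and leaving out each array. Plots used matplotlib 3.10.9 in Python 3.11.15.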

Additional observations from a re-analysis of the deposited data

Results flagged for a closer look

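Among 100 groups of 4 to 6 arrays (25 probe sets in 4 groups), 7 held an array whose gap to its nearest neighbour, as a share of the group's range, exceeded Dixon's 95% critical value. Chance flags about 5% of groups. In the Speer4e/Gm17019 probe set, WT_sleep_deprived replicate 2 read 5.57 against 5.12 to 5.28 on the other arrays. In Anxa11 17297801, WT_control replicate 1 read 9.31 against 9.44 to 9.46. In the H2B probe set 17285834, KO_control replicate 3 read 6.07 against 6.50 to 6.57, and the averaged change of 0.28 was 0.22 without it. In Gpr141/Srsf10, WT_sleep_deprived replicate 1 read 5.24 against 5.70 to 5.77. In the H2A probe set 17285677, WT_control replicate 2 read 3.78 against 4.17 to 4.19, and the averaged change of 0.25 was 0.20 without it. In the H3 probe set 17408015, KO_sleep_deprived replicate 1 read 5.90 against 5.22 to 5.40, and the averaged change of 0.22 was 0.16 without it. In Sprr2a2/Sprr2a1/Sprr2a3, WT_control replicate 3 read 6.20 against 5.85 to 5.91.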

How the results depend on the processing

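None of the 25 probe sets passed in the interaction or in any of the 3 genotype comparisons under any alternative run, with the smallest adjusted p (limma) from 0.20 to 0.46 for the interaction, 0.33 to 0.57 averaged over conditions, 0.63 to 1.00 in controls and 0.13 to 0.36 after sleep deprivation. The filter on dim rows left 15 of the 25 to test. A threshold of 0.15 for the averaged change gave 41 probe sets and one of 0.25 gave 15. Leaving out each array gave 23 to 31 and no averaged change reversed, and 16 of the 25 stayed at 0.2 or more on leaving out any array. Of the 25, 22 reached 0.2 after quantile normalization, 23 after median centring and 24 with all sleep-deprived arrays set against all controls. Same-numbered arrays of different groups had correlations of their deviations from -0.22 to 0.08 (median -0.03) in 25 pairs. Differently numbered ones had -0.20 to 0.30 (median 0.01) in 109 pairs, and 0 of 19 arrays were closest to their own number. These values cannot show whether same-numbered samples had anything in common in their handling. With the replicate number as a block 27 probe sets reached 0.2, 23 of them among the 25, and 0 passed in the interaction (smallest adjusted p = 0.28). The arrays give no detection calls here, and 10 of the 25 lay among the dimmest 40% of rows. The mean log2 level had a median of 5.94 over the 25, against 6.90 over the 772 eligible probe sets. The precision of the values of the 25 is limited by 4 to 6 arrays a group.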
